A study of Homo sapiens with 6 samples.

Results

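The genes described here make, store and break down dopamine: TH, DDC, GCH1, SLC18A2, MAOA, MAOB and ALDH1A1, together with NR4A2 and CALB1, which are used to describe dopaminergic neurons. They were given as a list of names, drawn up with earlier results of these data known, and make up 9 of 27439 genes with reads. The samples were astrocytes (iAst) derived from H1, a widely used human embryonic stem cell line, which the labels still give as the cell type. Ventral midbrain astrocytes gave 3 libraries and Control (Forebrain) astrocytes gave 3, numbered 2, 3 and 4 in each group. The labels name no other treatment, genotype or culture time. Whether separate cultures were used is not stated, so each p-value reflects the spread among these libraries, which may be technical, and all of them come from 1 line.

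Dopamine is made from tyrosine by tyrosine hydroxylase (TH), which needs the cofactor tetrahydrobiopterin, and then by aromatic amino acid decarboxylase (DDC). A vesicular transporter loads it into vesicles, and monoamine oxidases on the outer mitochondrial membrane and aldehyde dehydrogenases break it down. In the midbrain, synthesis belongs to dopaminergic neurons, while astrocytes are known for taking up and degrading monoamines, with MAOB a known astrocyte enzyme.

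RNA was measured with 3' end libraries of polyadenylated RNA, in which a read marks the end of a transcript and the number of reads does not grow with its length. The libraries held 11617935 to 15391082 estimated reads. Levels are CPM, reads scaled to a common TMM-normalized library size, and a library with 0 reads allows a level of up to 0.195 to 0.257 CPM (3 reads, counting error only). The astrocyte label was checked on 13 markers. None was at 0, and their summed level was 5692 to 6517 CPM in ventral midbrain and 4909 to 5818 CPM in control libraries. Most of this sum was VIM, an intermediate filament gene, at 4485 CPM on average in ventral midbrain and 3609 CPM in control libraries. Of the 13, 3 (AQP4, SLC1A3 and NFIA) rose and 0 fell in edgeR, where 2.15% of all genes passed. With the replicate number as a block, which called 8.13% of all genes, the same 3 were higher and GJA1, SOX9 and CD44 were lower. Those lower averaged 35.0, 191 and 608 CPM in ventral midbrain, against 55.3, 258 and 909 CPM in control libraries. GFAP averaged 371 CPM in ventral midbrain and 362 CPM in control libraries (edgeR adjusted p = 0.99). AQP4, the astrocyte water channel, averaged 30.5 CPM in ventral midbrain and 3.86 CPM in control libraries, and SLC1A3, a glutamate transporter, 94.4 CPM in ventral midbrain and 35.4 CPM in control libraries. ALDH1L1 and SLC1A2 were the lowest of the 13, at 1.5 and 1.76 CPM in ventral midbrain and 1.07 and 2.56 CPM in control libraries.

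The comparison asks how ventral midbrain astrocytes differ from forebrain ones in the genes that make, store and destroy dopamine. Of the 9 members, 5 had enough reads to be tested and 4 did not. CALB1, 1 of these 5, was lower in ventral midbrain libraries, 0 were higher, and 4 did not pass an adjusted p of 0.05 in edgeR. Among all 15984 genes tested, 2.15% passed, 1.09% lower and 1.06% higher. The fit with the replicate number as a block was made because same-numbered libraries deviated together. It called 8.13% of all genes, 4.5% lower and 3.63% higher, and again CALB1 alone among the members. The enzymes and the transporter with which a dopaminergic cell makes and stores dopamine, TH, DDC and SLC18A2, were at or near 0 reads in both groups. MAOA, MAOB, NR4A2 and GCH1 were present in every library, and their intervals included no change. The median log2 fold change of the 5 tested members was -0.22, against 0.01 over all genes tested.

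**Figure D1:**
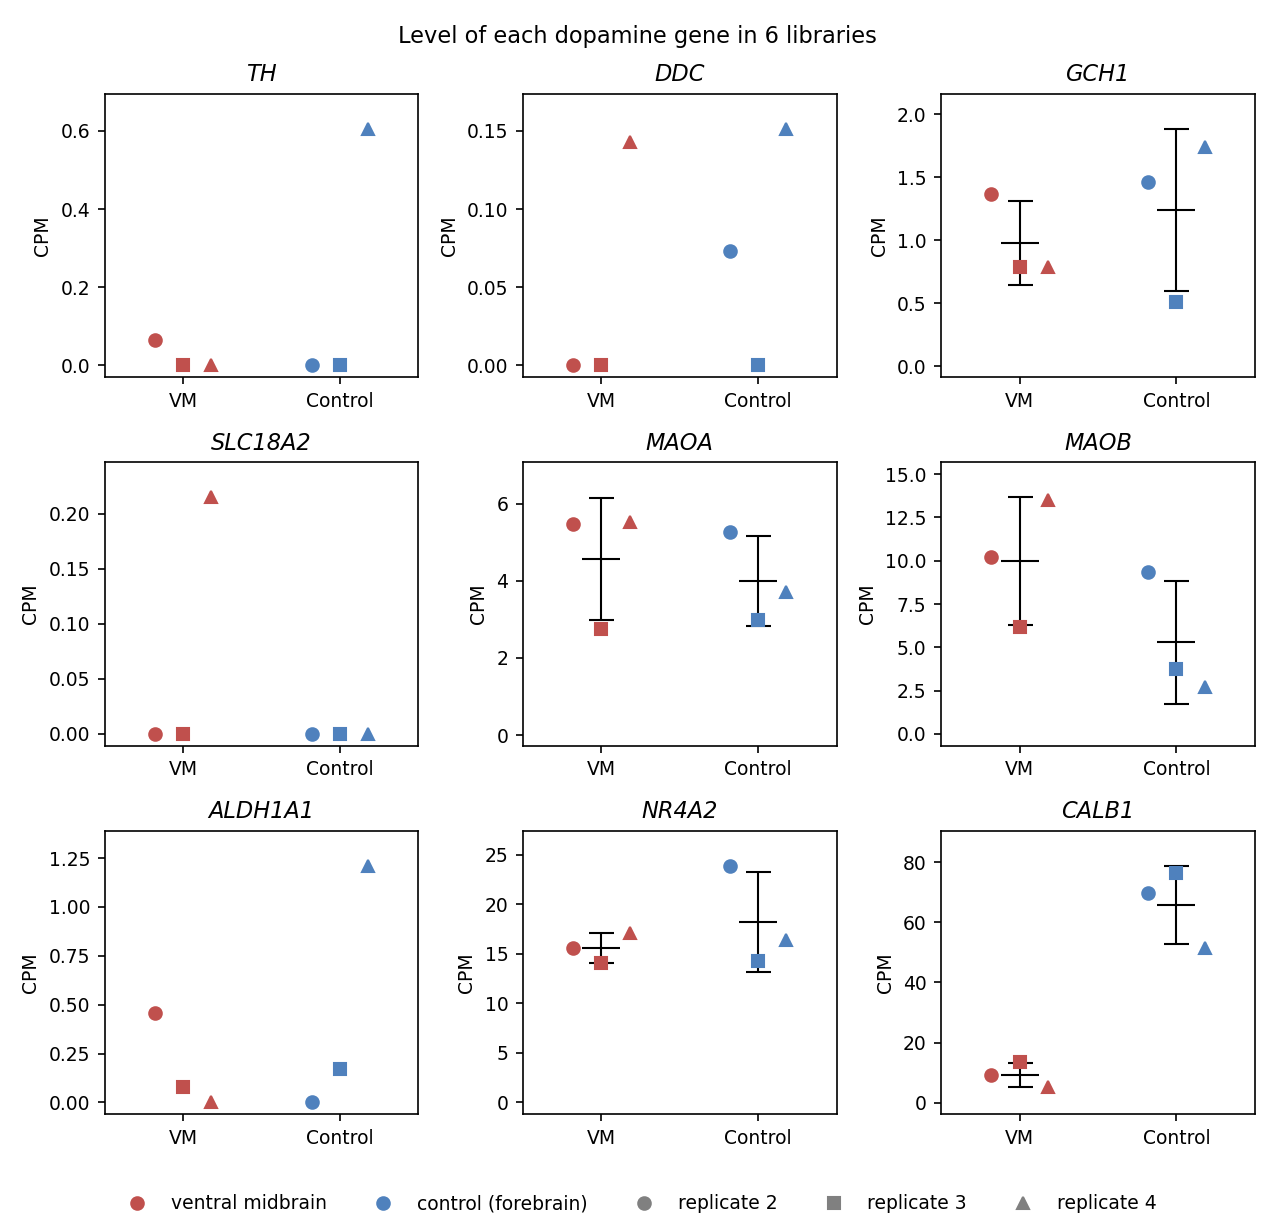
Level of each member in CPM (vertical axes, each from 0) in the 3 ventral midbrain (VM, left) and 3 control libraries (right), with marker shapes for replicate numbers. Horizontal bars and whiskers give mean and SD of the 5 tested members, and the other 4 are shown as points alone. The groups separate in CALB1, at 5.16 to 13.4 CPM in ventral midbrain and 51.4 to 76.3 CPM in control libraries.

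Among the synthesis genes, TH, the rate-limiting enzyme of catecholamine synthesis (chromosome 11, GRCh38), had 1, 0 and 0 reads in ventral midbrain replicates 2, 3 and 4, and 0, 0 and 8 reads in the control replicates. Nearly all TH reads thus came from control replicate 4, where the level was 0.605 CPM with an exact Poisson 95% interval of 0.261 to 1.19 CPM. DDC, which turns L-DOPA into dopamine, had 0, 0 and 2 reads in ventral midbrain and 1, 0 and 2 reads in control libraries. All of its 5 reads were assigned to DDC-211, a short noncoding transcript at the 3' end of the gene, and none to a protein-coding transcript. DDC also overlaps FIGNL1 on the same strand, which makes its few reads uncertain. SLC18A2, the vesicular monoamine transporter VMAT2, had 3 reads in ventral midbrain replicate 4 and 0 in the other 5 libraries, and it overlaps PDZD8 on the opposite strand, whose reads cannot be told apart if strand was not used in counting. No fold change is given for these genes, whose levels were at or near the limit of detection in both groups.

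GCH1 makes the first and rate-limiting step of tetrahydrobiopterin synthesis (chromosome 14, 54842008 to 54902852). It was at 1.37, 0.784 and 0.788 CPM in ventral midbrain libraries, against 1.46, 0.513 and 1.74 CPM in control libraries. The groups overlapped, with 6 to 23 reads per library. The log2 fold change was -0.34 ± 0.72 (SE), with a 95% interval of -1.92 to 1.25 and an edgeR adjusted p of 0.925, an interval that spans 0.264 to 2.37 times the control level.

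The other genes of the cofactor route were well covered. All 7 were tested, and 0 passed edgeR's test, 0 passed with the block, and 0 had an unadjusted p under 0.05. QDPR, which recycles the cofactor, was at 57.0, 42.7 and 44.0 CPM in ventral midbrain and 56.0, 52.5 and 50.4 CPM in control libraries. PTS, the enzyme after GCH1, was at 17.9, 17.6 and 15.1 CPM against 15.1, 13.3 and 13.4 CPM in control libraries, close but without overlap (edgeR adjusted p = 0.68). GCHFR, which encodes the feedback regulator of GCH1, was at 7.61, 3.21 and 6.59 CPM in ventral midbrain and 6.73, 9.16 and 12.5 CPM in control libraries (edgeR adjusted p = 0.53). The cofactor genes were thus expressed in both groups while the hydroxylase that uses the product was near 0.

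Of 6 further monoamine synthesis enzymes, TPH1 alone could be tested, and 2 had no read in any library. TPH1, a tryptophan hydroxylase of serotonin and melatonin synthesis, was at 0.715, 1.49 and 2.01 CPM in ventral midbrain and 0.805, 1.88 and 1.29 CPM in control libraries (edgeR adjusted p = 0.98). PNMT, which makes adrenaline, had 2, 4 and 1 reads in ventral midbrain and 13, 3 and 12 reads in control libraries, too few to be tested. DBH, which turns dopamine into noradrenaline, had no read in any library.

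Markers of monoaminergic neurons were scarce. Of 7 markers of serotonergic and noradrenergic neurons, 5 had no read in any library (FEV, SLC6A4, DBH, PHOX2A and SLC6A2). Their summed level was 0 to 0.143 CPM in ventral midbrain and 0 to 0.293 CPM in control libraries. Of 6 markers used for dopaminergic neurons, NR4A2 alone reached a level that could be tested. SLC6A3, the dopamine reuptake transporter, had 0, 0 and 5 reads in ventral midbrain and 6, 0 and 0 reads in control libraries. PITX3, a transcription factor of midbrain dopaminergic neurons, had 6, 2 and 6 reads against 5, 0 and 9 reads in control libraries.

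Reuptake by low-affinity transporters was represented at higher levels. SLC22A3, an organic cation transporter that carries dopamine, was at 26.3, 14.3 and 28.8 CPM in ventral midbrain and 24.4, 21.8 and 37.4 CPM in control libraries (edgeR adjusted p = 0.83). SLC29A4, a plasma membrane monoamine transporter, was at 11.9, 8.47 and 7.95 CPM against 12, 7.27 and 11 CPM in control libraries (edgeR adjusted p = 0.95). For both genes the groups overlapped. SV2C, a synaptic vesicle protein abundant in the basal ganglia, was at 6.63, 17.2 and 11 CPM in ventral midbrain and 1.76, 2.14 and 5.67 CPM in control libraries. Its groups did not overlap, but it did not pass edgeR's test (adjusted p = 0.12, block 0.0067). It was the single call with the block among the 4 tested genes of the 9 in this storage and transport list, against 8.13% of all genes in that fit.

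MAOA and MAOB, the paired oxidases that deaminate dopamine, lie tail to tail on chromosome X, MAOA at 43654907 to 43746824 on the forward and MAOB at 43766611 to 43882447 on the reverse strand, 19.8 kb apart (GRCh38). All reads of each gene were assigned to 1 of its transcripts. RefSeq windows from 250 bases before to 50 after an annotated start site (GRCh38.p14) are shown because the results below treat both genes as a pair. Windows for 5 of the 9 members were matched by symbol. The MAOA window is chrX:43656049-43656348 on the forward strand and the MAOB window chrX:43882401-43882700 on the reverse strand. The MAOA transcript that was assigned the reads starts at 43654907, upstream of the window, which is thus not the window of that start. The MAOB transcript starts at 43882447, inside its window. Capitals mark the GC box GGGCGG on either strand, and 1 pair of MAOB matches overlaps.
MAOA: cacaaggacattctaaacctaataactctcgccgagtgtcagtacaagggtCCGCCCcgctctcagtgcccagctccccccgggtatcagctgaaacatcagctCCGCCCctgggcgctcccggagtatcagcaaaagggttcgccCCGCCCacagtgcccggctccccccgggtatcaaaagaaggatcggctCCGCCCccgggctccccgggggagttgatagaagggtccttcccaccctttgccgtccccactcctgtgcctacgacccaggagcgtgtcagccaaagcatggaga
MAOB: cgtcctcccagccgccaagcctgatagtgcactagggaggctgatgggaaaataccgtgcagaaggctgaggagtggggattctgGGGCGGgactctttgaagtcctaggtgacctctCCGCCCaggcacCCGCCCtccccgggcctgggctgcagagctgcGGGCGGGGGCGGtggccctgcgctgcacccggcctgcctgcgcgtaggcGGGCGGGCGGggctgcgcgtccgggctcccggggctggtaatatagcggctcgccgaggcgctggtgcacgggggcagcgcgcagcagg
The MAOA window held 4 GC boxes, all on the opposite strand, and the MAOB window 7, with 5 on the gene's strand. At least 1 GC box was present in 45.0% of 35116 windows of the same length. Neither window held TATAAA, found in 11.5% of windows on either strand, or the cyclic AMP response element TGACGTCA, found in 1.85%, while the SLC18A2 window held 1 such element. GC content was 63.0% in the MAOA and 72.0% in the MAOB window. A match describes letters only, and 3' end reads do not show which start site a transcript used.

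MAOA was at 5.46, 2.74 and 5.51 CPM in ventral midbrain and 5.27, 2.99 and 3.71 CPM in control libraries, and the groups overlapped. Its log2 fold change was 0.20 ± 0.42 (SE), with a 95% interval of -0.73 to 1.12 and an edgeR adjusted p of 0.925. In both groups replicate 3 was the lowest.

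MAOB was at 10.2, 6.19 and 13.5 CPM in ventral midbrain libraries, against 9.36, 3.76 and 2.72 CPM in control libraries. Control replicate 2 reached the ventral midbrain range, and the other control libraries lay below it. The log2 fold change was 0.91 ± 0.48 (SE), with a 95% interval of -0.16 to 1.98 and an edgeR adjusted p of 0.52. Without control replicate 2 it was 1.62 (edgeR adjusted p = 0.13), and without control replicate 4 it was 0.60 (edgeR adjusted p = 0.85).

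The balance of both oxidases was then taken within each library, a quantity chosen after the values were seen. MAOB made up 65.1%, 69.3% and 71.1% of the summed MAOA and MAOB reads in ventral midbrain replicates 2, 3 and 4, against 64.0%, 55.7% and 42.4% in the control replicates. The means were 68.5% ± 3.03 in ventral midbrain and 54.0% ± 10.9 in control libraries (SD, n = 3 each), and the groups did not overlap. A two-sided exact permutation test, which did not pair libraries by replicate number, gave p = 0.1. That is the smallest that 3 against 3 libraries allow, so the design could not pass 0.05 and the test adds nothing to the lack of overlap. Exact (Clopper-Pearson) 95% intervals of a single library cover counting error only and compare no conditions. Those of replicate 2, 58.8% to 71.1% in ventral midbrain and 56.9% to 70.6% in control, overlapped nearly in full, and those of replicate 4 were 65.2% to 76.4% in ventral midbrain and 31.7% to 53.6% in control.

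**Figure D2:**
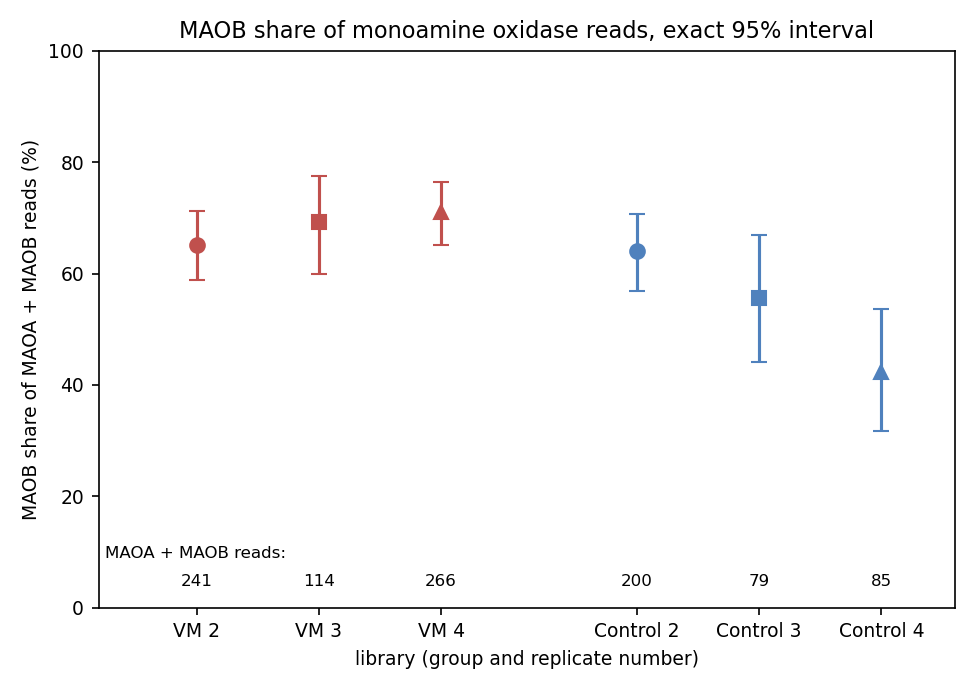
MAOB reads as a percentage of the summed MAOA and MAOB reads (vertical axis) in each library (horizontal axis), with exact 95% binomial intervals (counting error only) as whiskers and the summed reads printed at the bottom. The ventral midbrain libraries lie at 65.1% to 71.1% and the control libraries at 42.4% to 64.0%, with the closest pair in replicate 2.

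ALDH1A1, which oxidizes the aldehyde that monoamine oxidases make from dopamine and also makes retinoic acid (chromosome 9), had 7, 1 and 0 reads in ventral midbrain and 0, 2 and 16 reads in control libraries. Most of its reads came from control replicate 4, as for TH, and it was too low to be tested. Of the 43 reads of TH, DDC, SLC18A2 and ALDH1A1 together, 26 were in control replicate 4. That library also had the highest level of the neuronal gene STMN2, at 1456 CPM, and the part of neurons in these reads was not tested.

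Of 13 further enzymes of monoamine and aldehyde breakdown 11 were tested and 0 passed in edgeR, although 2 had an unadjusted p under 0.05. With the block 1 was higher and 1 lower. ALDH2, a mitochondrial aldehyde dehydrogenase, was at 152, 130 and 253 CPM in ventral midbrain and 91.7, 83.7 and 133 CPM in control libraries, with a log2 fold change of 0.79 and an SE of 0.27 (edgeR adjusted p = 0.25, block 0.0010). ALDH3A2, a fatty aldehyde dehydrogenase, was at 48.0, 29.6 and 56.7 CPM against 74.1, 56.5 and 91.1 CPM in control libraries, with a log2 fold change of -0.72 and an SE of 0.26 (edgeR adjusted p = 0.26, block 0.0024). In each numbered pair ALDH2 was higher and ALDH3A2 lower in the ventral midbrain library, although over all libraries the groups overlapped for both. ALDH9A1, which oxidizes aminoaldehydes, was at 98.5, 78.3 and 86.2 CPM in ventral midbrain and 103, 92.5 and 117 CPM in control libraries (edgeR adjusted p = 0.62).

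Within the ALDH1 family, 4 of 6 genes were tested and 0 passed, with or without the block, and 1 had an unadjusted p under 0.05. ALDH1A3, a retinaldehyde dehydrogenase and paralog of ALDH1A1, was at 12.8, 6.27 and 6.16 CPM in ventral midbrain and 3.07, 4.11 and 4.16 CPM in control libraries, without overlap (log2 fold change 1.16 ± 0.38, SE; edgeR adjusted p = 0.20). ALDH1B1, a mitochondrial member, was at 10.6, 8.94 and 6.95 CPM in ventral midbrain and 10.8, 10.9 and 12.1 CPM in control libraries (edgeR adjusted p = 0.69). ALDH1L2, the mitochondrial relative of ALDH1L1 in folate metabolism, was at 3.45, 2.90 and 3.15 CPM against 5.85, 4.53 and 4.24 CPM in control libraries (edgeR adjusted p = 0.58). These 3 genes, named for their level or small p, had groups without overlap, while the groups overlapped for ALDH1L1, the remaining tested gene. Among all genes tested, 17.9% had groups without overlap.

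Dopamine receptors and their signalling partners gave 6 tested genes of 9, of which 0 passed in edgeR, 1 had an unadjusted p under 0.05 and 1 was lower with the block. PPP1R1B, which encodes the dopamine-regulated phosphatase inhibitor DARPP-32, was at 17.1, 8.31 and 12.5 CPM in ventral midbrain and 25.2, 20.5 and 38.6 CPM in control libraries. The groups did not overlap, and the log2 fold change was -1.15 ± 0.31 (SE; edgeR adjusted p = 0.107, block 0.0044). PDE10A, a phosphodiesterase of striatal neurons, was at 302, 419 and 280 CPM in ventral midbrain and 269, 336 and 244 CPM in control libraries (edgeR adjusted p = 0.73). GNAL, a stimulatory G protein subunit, was at 60.5, 60.4 and 55.1 CPM against 49.8, 52.8 and 48.8 CPM in control libraries, without overlap (edgeR adjusted p = 0.63).

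NR4A2, also called Nurr1, is a nuclear receptor required for midbrain dopaminergic neurons and is also an immediate early gene in many cells (chromosome 2, 156324432 to 156342348). It was at 15.6, 14 and 17.1 CPM in ventral midbrain libraries, against 23.8, 14.3 and 16.3 CPM in control libraries. Control replicate 2 was the highest library, and the other control libraries lay within the ventral midbrain range. The log2 fold change was -0.22 ± 0.24 (SE), with a 95% interval of -0.75 to 0.31 and an edgeR adjusted p of 0.82, and it turned to 0.025 without control replicate 2 (edgeR adjusted p = 0.99).

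Its paralogs NR4A1 and NR4A3 had fold changes of opposite sign, and neither passed edgeR's test. NR4A1 was at 6.89, 3.69 and 7.16 CPM in ventral midbrain and 16.3, 5.30 and 16.2 CPM in control libraries (log2 fold change -1.09 ± 0.44, SE; edgeR adjusted p = 0.35, block 0.033). NR4A3 was at 5.92, 8.08 and 5.08 CPM against 5.12, 1.63 and 5.22 CPM in control libraries (log2 fold change 0.67 ± 0.45, SE; edgeR adjusted p = 0.65). The difference between the paralogs was not tested.

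CALB1 encodes calbindin-D28k, a cytosolic calcium buffer that marks a subset of midbrain dopaminergic neurons and many other neurons (chromosome 8). It was at 9.10, 13.4 and 5.16 CPM in ventral midbrain libraries, against 69.8, 76.3 and 51.4 CPM in control libraries. Every ventral midbrain library lay far below every control library, and replicate 4 was the lowest and replicate 3 the highest in both groups. CALB1 fell by 2.84 ± 0.33 on the log2 scale (SE), which is 7.15-fold lower, with a 95% interval of -3.59 to -2.09 (edgeR adjusted p = 0.0040). Among the 15984 genes it had the 51st smallest p and the 66th most negative log2 fold change. Of its reads 97.9% were assigned to 1 protein-coding transcript. The call held in all 13 alternatives, with adjusted p of at most 0.032. In bulk RNA, fewer cells of a type and less RNA per cell cannot be told apart.

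Neuron markers were compared beside CALB1, since it is a neuronal gene in the adult brain. The summed level of 12 neuron markers was 856 to 1249 CPM in ventral midbrain and 1343 to 2074 CPM in control libraries, and the groups did not overlap. STMN2, a growth-associated tubulin regulator of neurons, made up much of it, at 570, 150 and 626 CPM in ventral midbrain and 1087, 639 and 1456 CPM in control libraries. Without STMN2, taken out after its values were seen, the other 11 markers summed to 556 to 706 CPM in ventral midbrain and 596 to 703 CPM in control libraries. The control range lay inside that of the ventral midbrain libraries. Most of this smaller sum was TUBB3 and MAP2, at 231 and 252 CPM on average in ventral midbrain and 226 and 234 CPM in control libraries. Of the 12 markers 11 were tested, 6 with positive and 5 with negative fold changes. The negative log2 fold changes, of STMN2, DCX, ELAVL3, ELAVL4 and INA, ran from -1.91 to -0.88. The positive ones ran from 0.03 to 0.55. In edgeR 0 passed, 2 had an unadjusted p under 0.05, and STMN2, DCX and INA were lower with the block. DCX averaged 26.4 CPM in ventral midbrain and 58.0 CPM in control libraries without overlap, and INA 2.96 and 11.1 CPM with overlap. RBFOX3, a marker of mature neurons, had 3, 8 and 2 reads in ventral midbrain and 0, 0 and 11 reads in control libraries. The part of neurons in the CALB1 difference was not tested.

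**Figure D3:**
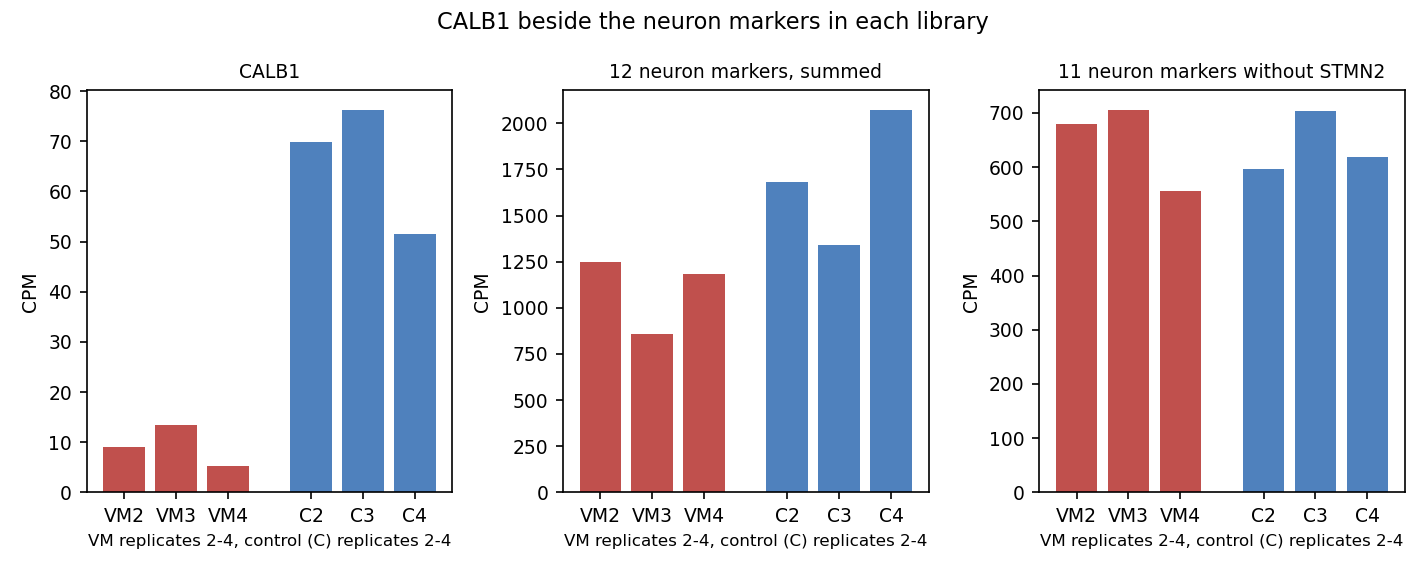
CPM (vertical axes, from 0) of CALB1, of 12 neuron markers summed and of the 11 markers without STMN2, with 1 bar per library, ventral midbrain replicates 2 to 4 on the left and control (C) replicates 2 to 4 on the right of each panel. CALB1 is at most 13.4 CPM in ventral midbrain and at least 51.4 CPM in control libraries. The sum without STMN2, a split made after the values were seen, is mostly TUBB3 and MAP2 and overlaps between the groups.

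Markers of other cell types also moved with the groups. The summed level of 7 mesenchymal markers was 267 to 347 CPM in ventral midbrain and 718 to 1149 CPM in control libraries, and most of it was COL1A1, a fibrillar collagen (277 CPM on average in ventral midbrain and 910 CPM in control libraries). COL1A1, COL3A1 and PRRX1 fell in edgeR, 3 of 7 against 1.09% of all genes, and 4 were lower with the block against 4.5%. The list did not move as one: LUM, a matrix proteoglycan, averaged 2.80 CPM in ventral midbrain and 0.524 CPM in control libraries without overlap (edgeR adjusted p = 0.30), RGS5, a pericyte gene, 3.49 CPM in ventral midbrain and 2.01 CPM in control libraries without overlap (edgeR adjusted p = 0.55), and PDGFRB 15.8 CPM in ventral midbrain and 17.6 CPM in control libraries (edgeR adjusted p = 0.90). The summed level of 7 oligodendrocyte lineage markers was 114 to 133 CPM in ventral midbrain and 157 to 198 CPM in control libraries. Of the 4 tested, PDGFRA, a receptor of progenitors, fell, at 18 CPM on average in ventral midbrain and 63.2 CPM in control libraries, while SOX10 had no read in any library. With the block 1 of the 4 was higher and 2 were lower. The summed level of 7 radial glia and progenitor markers was 1117 to 1287 CPM in ventral midbrain and 1197 to 1397 CPM in control libraries. All 7 were tested, and 1 rose and 1 fell, in edgeR and with the block. The part of any of these cell types in the CALB1 difference was not tested.

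The protein-coding genes whose log2 CPM was most like that of CALB1 over the 6 libraries, among 11342 with an average log2 CPM of at least 2, were LMO4, CDK14 and ZIC1 (Pearson r 0.993, 0.990 and 0.987). With 6 libraries in separate groups, such values rest mainly on the group difference and are a description. With each group's mean taken off, r was 0.904, 0.931 and 0.844, for genes picked by their r over the same libraries. LMO4 and ZIC1 passed in edgeR (adjusted p = 0.018 and 0.0040), and CDK14 did not (adjusted p = 0.052). LMO4, a LIM-only transcriptional cofactor, averaged 120 ± 12.9 CPM in ventral midbrain and 219 ± 20.9 CPM in control libraries (SD, n = 3 each). CDK14, a cyclin-dependent kinase, averaged 46.7 ± 7.38 and ZIC1, a zinc finger factor, 12.2 ± 3.33 CPM in ventral midbrain, against 76.3 ± 3.59 CPM for CDK14 and 46.2 ± 9.86 CPM for ZIC1 in control libraries (SD, n = 3 each).

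Of 6 EF-hand calcium buffer genes, CALB1 and CALB2 had enough reads for a test, and both had negative fold changes. CALB2, which encodes calretinin, was at 0, 0.549 and 0.931 CPM in ventral midbrain and 2.05, 1.97 and 6.73 CPM in control libraries. It did not pass in edgeR (adjusted p = 0.24) and was lower with the block (adjusted p = 0.029). PVALB, which encodes parvalbumin, had 23, 0 and 11 reads in ventral midbrain and 7, 0 and 0 reads in control libraries, too few to be tested and named after its values were seen.

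Genes that divide dopaminergic neurons into subtypes did not change in 1 direction. Of 16 such genes 11 were tested, and 1 rose, 2 fell, CALB1 among them, and 8 did not pass, with 1 higher and 3 lower with the block. KCNJ6, the GIRK2 potassium channel of the ventral tier, was at 4.55, 7.84 and 8.38 CPM in ventral midbrain and 1.54, 0.941 and 1.13 CPM in control libraries, without overlap. Its log2 fold change was 2.51 ± 0.44 (SE; edgeR adjusted p = 0.016), a call that ended in 6 of 13 alternatives: without ventral midbrain replicate 3 or 4 or control replicate 4 (highest adjusted p = 0.075), with voom, with an offset for gene length and on the values normalized by the authors (highest adjusted p = 0.098). Its log2 fold change in these 6 was 2.35 to 2.92. SOX6, a transcription factor of the ventral tier that is also made in glial progenitors, was at 16.8, 15.1 and 16 CPM in ventral midbrain and 41.0, 42.7 and 36.6 CPM in control libraries. It fell by 1.33 ± 0.17 on the log2 scale (SE; edgeR adjusted p = 0.0040), a call held in all 13 alternatives. KCNJ6 and SOX6, both named for ventral tier neurons, thus moved in opposite directions. ANXA1, a mark of a ventral tier subset, was at 56.1, 70.6 and 58.2 CPM against 70.3, 78.5 and 79.0 CPM in control libraries (edgeR adjusted p = 0.49).

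**Figure D4:**
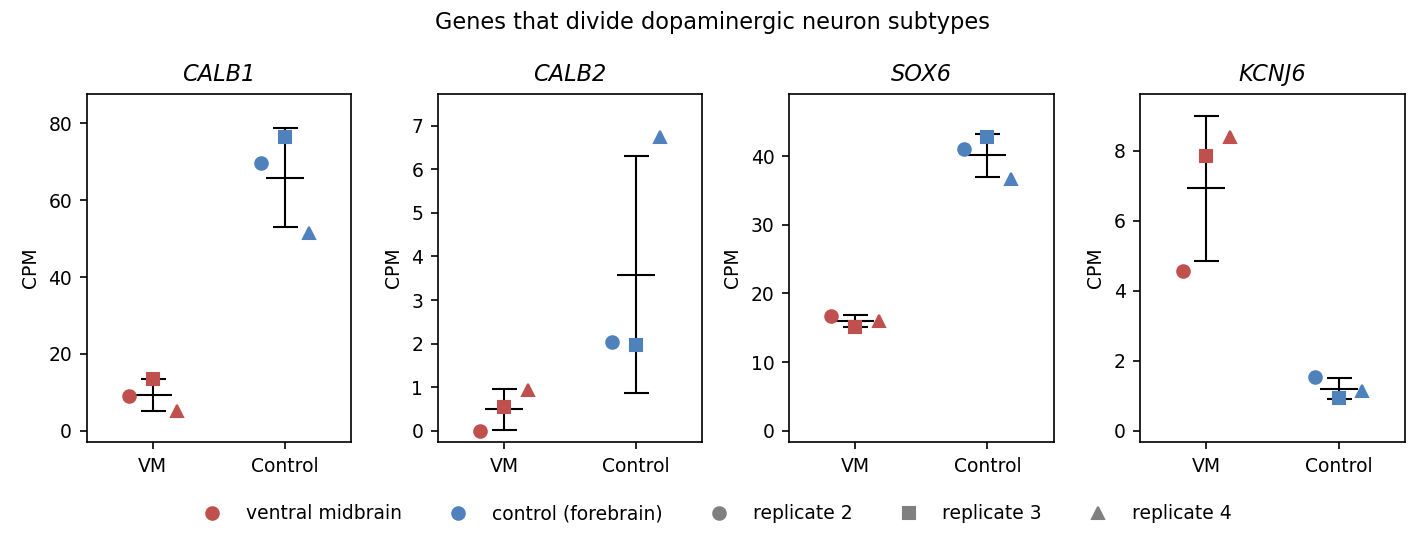
Level in CPM (vertical axes) of CALB1, CALB2, SOX6 and KCNJ6 in 3 ventral midbrain (VM, left) and 3 control libraries (right), with mean and SD as bar and whiskers and marker shapes for replicate numbers. CALB1 and SOX6 are lower and KCNJ6 is higher in every ventral midbrain library than in any control library, and CALB2 is at 0 to 0.931 CPM against 1.97 to 6.73 CPM in control libraries without passing edgeR's test.

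Transcription factors of dopaminergic neurons held the rises of EN1 and EN2. Of 14 such genes 10 were tested, 2 rose (EN1 and EN2), 1 fell (SOX6) and 7 did not pass. EN1, a midbrain homeobox gene that dopaminergic neurons keep, was at 191, 196 and 219 CPM in ventral midbrain and 4.83, 6.59 and 3.93 CPM in control libraries, and EN2 was at 11.4, 40.5 and 35.1 CPM against 1.90, 2.57 and 1.59 CPM in control libraries. The EN2 call was lost with voom and without control replicate 2 or 4 (highest adjusted p = 0.084), where its log2 fold change was 3.64 to 3.8, against 3.84 with all libraries in edgeR. OTX2, a forebrain and midbrain factor, was at 0.26, 1.72 and 5.01 CPM in ventral midbrain and 10.1, 19.4 and 23.2 CPM in control libraries (edgeR adjusted p = 0.245, block 0.0014). BNC2, a zinc finger factor, was at 175, 155 and 170 CPM in ventral midbrain and 141, 178 and 185 CPM in control libraries (edgeR adjusted p = 0.99).

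**Figure D5:**
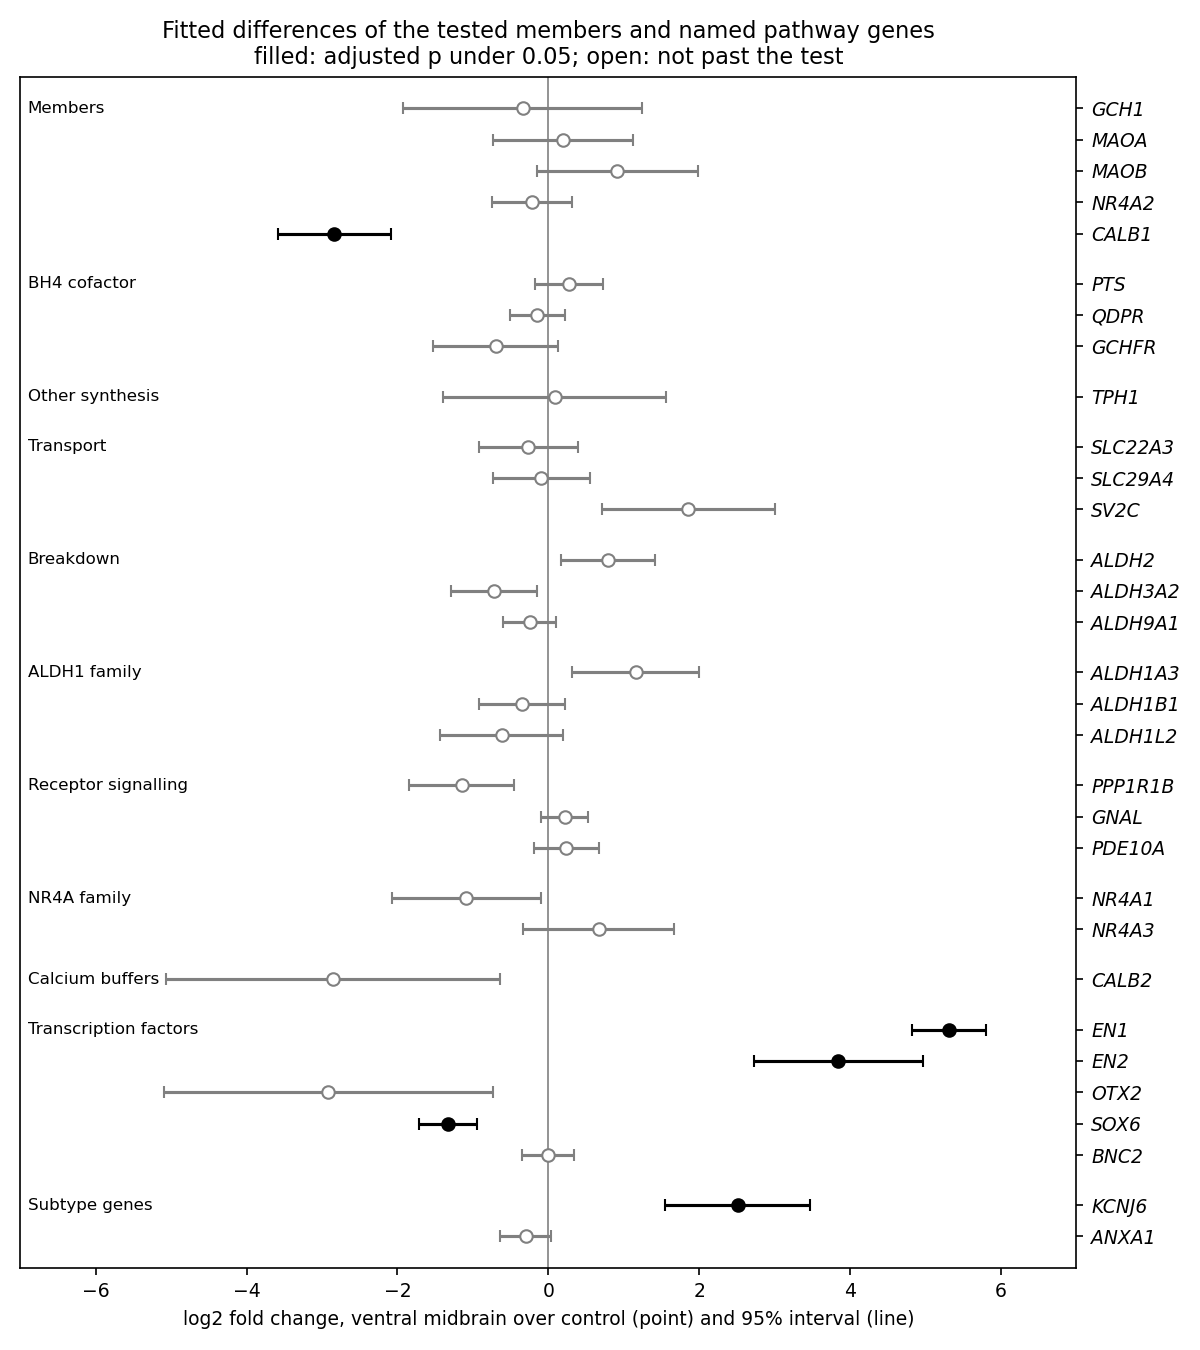
Log2 fold change of ventral midbrain over control (horizontal axis) with its unadjusted 95% interval for the 5 tested members and genes named from the 10 pathway lists, grouped by list. Filled points passed edgeR's test after adjustment over all genes: CALB1 at -2.84, SOX6 at -1.33, KCNJ6 at 2.51, EN2 at 3.84 and EN1 at 5.31.

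Across the 10 pathway lists, leaving out the members, 80 genes were followed, 52 were tested, and 3 rose and 1 fell. That is 7.69% of the tested genes, against 2.15% of all genes, for lists drawn up with earlier results of these data known. The 4 genes were EN1, EN2, KCNJ6 and SOX6. With the replicate block 5 were higher and 6 lower, 21.2% of the 52 against 8.13% of all genes. The enzymes ALDH2 (higher) and ALDH3A2 (lower) were among these. The median log2 fold change of the 52 genes was -0.03.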

How the data were processed

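RNA of 6 samples was read with 3' end libraries. The submitters' processing notes name Salmon (version not given), DESeq2 1.27.12 and, as genome, GRCh38.p13. For each library the authors deposited estimated counts and TPM (not used) for 226608 transcripts, with effective lengths, a signal in bases used for the length offset alone. The authors also deposited a normalized signal for 21509 genes. Neither the annotation nor the use of strand in counting is given in the sources used here.

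Estimated counts were summed per gene with GENCODE (GRCh38), which matched 205225 transcripts (90.6%). Unmatched ones held 0.992% to 1.12% of reads. Sums were rounded and filtered with filterByExpr, which left 15984 of 27439 genes. The groups were compared in edgeR 4.0.16 under R 4.3.3 (TMM, robust quasi-likelihood), and p-values were adjusted by Benjamini-Hochberg over all tested genes. SE was taken as the size of the log2 fold change over the root of the F statistic, and 95% intervals use the t distribution with the fit's degrees of freedom. Replicate numbers 2, 3 and 4 occur in both groups. Deviations from group means correlated at 0.234, 0.345 and 0.204 between same-numbered samples and at most 0.0237 between others. Deviations within a group cancel out, so these values are not independent. No label says what same-numbered samples share, and their pairing was not tested. Blocked values stand beside results whose call they change.

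Members and lists were chosen with earlier results of these data known. All members are named, as are list genes past the test with or without the block and, per list, up to 2 with the highest level and up to 2 with the smallest p. Some genes that this rule names are not reported here. For CALB1, the 3 protein-coding genes with the highest Pearson r are named. Markers are named where at 0 in all libraries or among the 2 highest of a list, and PVALB, RBFOX3, SLC6A3, PITX3, ALDH1L1, SLC1A2, SLC1A3, AQP4, NFIA, GFAP, GJA1, SOX9, CD44, DCX, INA, ELAVL3, ELAVL4, TUBB3, COL3A1, PRRX1, LUM, RGS5, PDGFRB and PDGFRA were named after their values were seen. Alternatives were RLE scaling, no filter, DESeq2 1.42.0, limma 3.58.1 voom, a gene-length offset, the deposited signal on log2(value + 1), the replicate block and leaving out each library. Exact intervals and permutation tests used scipy 1.17.1, and figures matplotlib 3.10.9.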

Additional observations from a re-analysis of the deposited data

How the results depend on the processing

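CALB1 was the single member past the test as reported and in all 13 alternatives, which covered leaving out each library, with log2 fold changes of -3.20 to -2.55. NR4A2 changed sign in 1 alternative, with a range of -0.37 to 0.025 when 1 library was left out, the highest without control replicate 2. MAOA (0.03 to 0.46), MAOB (0.60 to 1.62) and GCH1 (-0.70 to -0.02) kept their sign and did not pass in any of the 13. The replicate block changed the call of no member. Over all genes, 344 passed, against 1012 with no filter, 747 with DESeq2, 173 with the gene-length offset, 165 with the deposited values, 1300 with the replicate block and 135 to 258 when 1 library was left out. Of the pathway list genes outside the members, 4 passed, against 11 with no filter, 8 with DESeq2, 2 with voom, 11 with the replicate block and 3 to 4 when 1 library was left out. The cause of these shifts was not tested. At the depth of these libraries, TH, DDC, SLC18A2 and ALDH1A1 lay near the level of a few reads and were not tested. The interval of GCH1 was wide.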
